A study of Mus musculus with 8 samples.

Results

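Core splicing factor genes were taken as all genes whose symbol begins with Snrp, Hnrnp, Sf3, U2af or, followed by a digit, Srsf. The rule used the symbols and no expression value, and it gave 55 of the 18957 genes listed in the count files. RNA came from platelet-derived growth factor receptor alpha positive (PDGFRA+), hematopoietic lineage-negative cells sorted from mouse ventricles, sequenced as 4 WT and 4 Pdgfra-Cre:LmnaF/F libraries with 1 mouse each. The mice were 3 to 4 weeks old and of the strain given as C57BL/6 (mixed). The WT mice carried wild-type alleles, and the Pdgfra-Cre:LmnaF/F mice carried floxed *Lmna* on both alleles and the Cre recombinase under *Pdgfra* control. *Pdgfra* is expressed in fibroblasts and other mesenchymal tissues, and the paper describes its locus as also active in some cardiac myocytes of the embryo. The paper reports loss of the LMNA protein in part of the cardiac myocytes of these mice. The 4 replicates of a genotype are separate animals, and mice with Cre alone were not analysed here, so an effect of Cre cannot be told apart from that of the *Lmna* deletion. *Lmna* encodes lamins A and C, the intermediate filaments that line the inside of the nuclear envelope.

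Splicing removes introns from pre-mRNA in the spliceosome, which is built from small nuclear ribonucleoproteins (snRNPs), each a small nuclear RNA with its proteins. U1 recognizes the beginning of the intron, U2 with the SF3a and SF3b complexes recognizes the branch point, and the U2AF heterodimer marks the end of the intron. SR proteins bind mainly exonic enhancers and favour the use of nearby splice sites, whereas heterogeneous nuclear ribonucleoproteins (hnRNPs) coat the transcript and often repress them. Many SR and hnRNP genes hold an alternative exon or retained intron that sends their own transcripts to nonsense-mediated decay and so sets their level.

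Expression is given as CPM, the count of a gene per 1000000 counts of its library after scaling with TMM factors. The quasi-likelihood test in edgeR set the genotypes against each other over 13036 genes, and the model held genotype alone. The total count was 2080555 to 10741519 in the WT and 8284882 to 12502949 in the Pdgfra-Cre:LmnaF/F libraries. *Lmna*, the targeted gene, was lower in each Pdgfra-Cre:LmnaF/F library, at 90.4 to 130 CPM against 274 to 483 CPM in the WT libraries, and it fell by 1.72 on the log2 scale (edgeR, adjusted p = 0.00492). The 10 fibroblast markers were detected in each library with a summed level of 83373 to 97539 CPM in the WT and 81359 to 93918 CPM in the Pdgfra-Cre:LmnaF/F libraries. The only fibroblast marker past the adjusted threshold was *Thy1*, which fell by 2.18 on the log2 scale (edgeR adjusted p = 0.00273). The shallowest library was WT replicate 2. WT replicate 3 had 14 genes at 0 counts that reached 5 CPM in each of the other libraries, against 0 to 5 such genes elsewhere. Pdgfra-Cre:LmnaF/F replicate 4 held 5548 CPM of 7 cardiac myocyte markers, against 276 to 993 CPM in the other libraries. By Y-linked genes, 3 WT libraries and 1 Pdgfra-Cre:LmnaF/F library (replicate 4) were from males, and WT replicate 3 and 3 Pdgfra-Cre:LmnaF/F libraries were from females. Genotype and sex are thus partly confounded. Values are therefore also given with sex as a term, where the sex difference within each genotype rests on 1 library of the rarer sex (WT replicate 3 and Pdgfra-Cre:LmnaF/F replicate 4). They are also given without WT replicates 2 and 3 and Pdgfra-Cre:LmnaF/F replicate 4. The 5 other libraries are 2 WT libraries from males and 3 Pdgfra-Cre:LmnaF/F libraries from females, so genotype and sex cannot be told apart in them.

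Of the 53 core splicing factor genes tested, 1, *Hnrnpa2b1*, passed the adjusted threshold in edgeR. It was higher in the Pdgfra-Cre:LmnaF/F fibroblasts, and no member was called lower. Of all genes tested, 53 were called (0.407%), 22 of them higher (0.169%) and 31 lower (0.238%). At an unadjusted p under 0.05, 9 members (17%) were higher and 1 (1.89%) was lower, beside 6.24% and 5.65% of all genes. The CPM of the genotypes did not overlap for 6 members (11.3%), all higher in the Pdgfra-Cre:LmnaF/F fibroblasts, beside 8.03% of all genes (4.06% higher and 3.97% lower). The log2 fold change was positive for 36 of the 53 members (67.9%) and for 51.8% of all genes. The median was 0.21 for the members and 0.02 for all genes, without a test of the list. Leaving out WT replicate 3 lowered the median of the members to 0.11, and keeping only the 5 other libraries lowered it to 0.067, whereas with sex as a term it was 0.20. With sex as a term, 8 members (15.1%) were higher and 2 (3.77%) lower at an unadjusted p under 0.05 in edgeR, beside 7.12% and 6.3% of all genes. In the 5 other libraries 4 members (7.55%) were higher and 0 lower at an unadjusted p under 0.05 in edgeR, beside 4.16% and 4.33% of all genes. The cells were measured in bulk, so a change of RNA per cell and a change in the number of cells that carry it cannot be told apart. The members without a test were *Srsf12*, with 11 counts in WT replicate 1, 12 in Pdgfra-Cre:LmnaF/F replicate 1 and 0 elsewhere, and U2af1l4, with 0 to 43 counts.

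**Figure D1:**
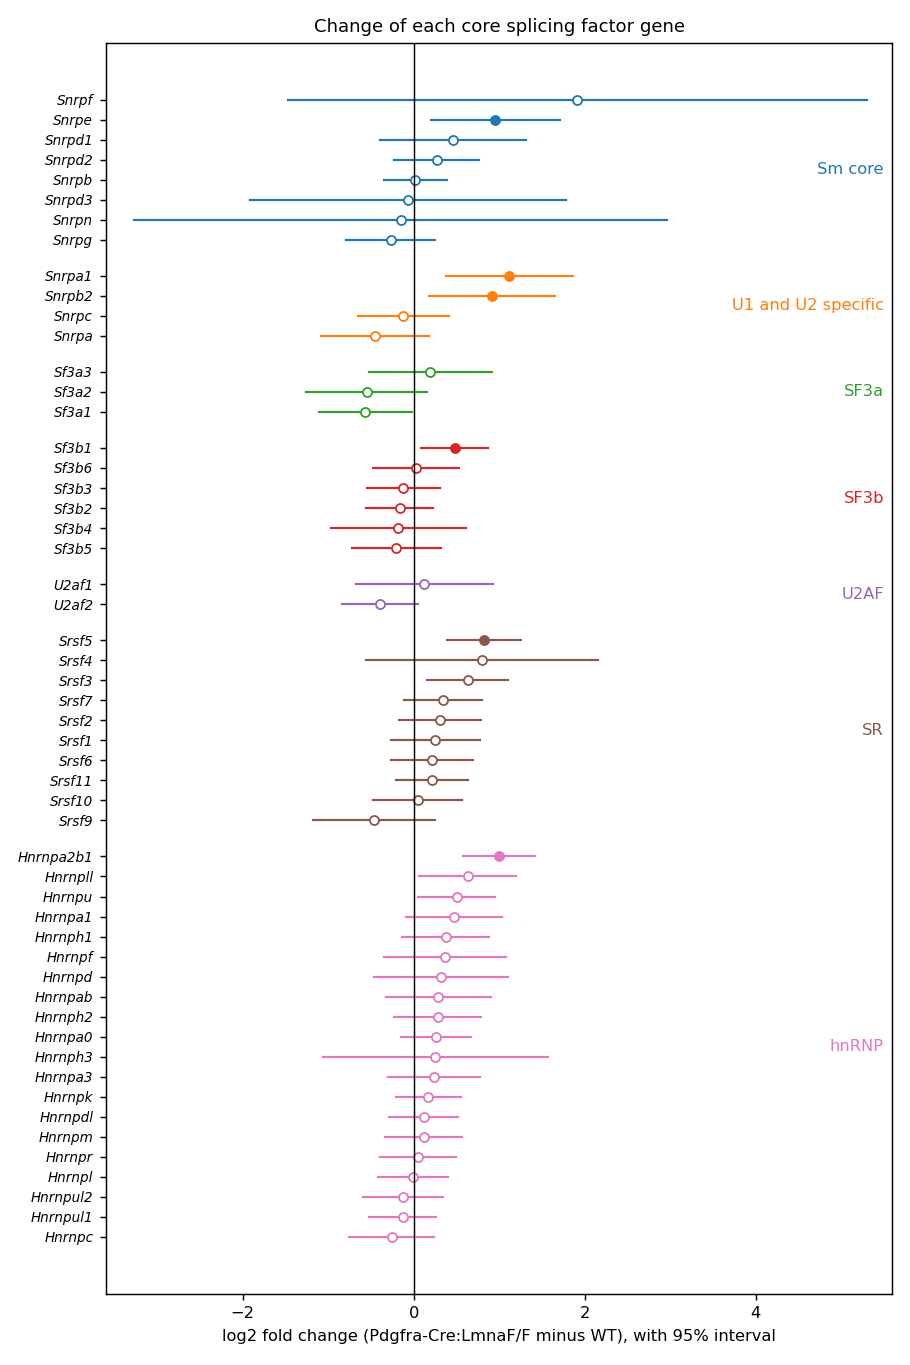
Log2 fold change (Pdgfra-Cre:LmnaF/F minus WT, horizontal axis) of the 53 tested core splicing factor genes with the 95% interval of the edgeR fit, grouped by subfamily. Filled points mark the 6 genes whose genotypes do not overlap, and all of these lie right of 0; most other intervals cross 0.

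The summed level of all 55 members was 4961, 4618, 4301 and 4526 CPM in WT replicates 1 to 4. It was 5294, 5401, 5800 and 4985 CPM in Pdgfra-Cre:LmnaF/F replicates 1 to 4. The groups did not overlap, and the distance between the highest WT library and the lowest Pdgfra-Cre:LmnaF/F library was smaller than the SD within either genotype, which was 274 CPM in the WT and 337 CPM in the Pdgfra-Cre:LmnaF/F libraries. The sum is carried by the abundant genes, and by subfamily it separated the genotypes for SR proteins (867 to 1011 CPM in the WT and 1070 to 1456 CPM in the Pdgfra-Cre:LmnaF/F libraries) and for hnRNPs (1968 to 2312 and 2344 to 2708 CPM). The ranges overlapped for the Sm core, for the U1 and U2 specific proteins, for SF3a, SF3b and U2AF. The plot of all members by library shows that WT replicate 3 was the lowest of the 8 libraries for 22 of the 53 tested members (1 to 9 for each of the others), with a median deviation of -0.24 on the log2 scale from the mean over the 8 libraries, against -0.06 to 0.20 in the other 7.

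**Figure D2:**
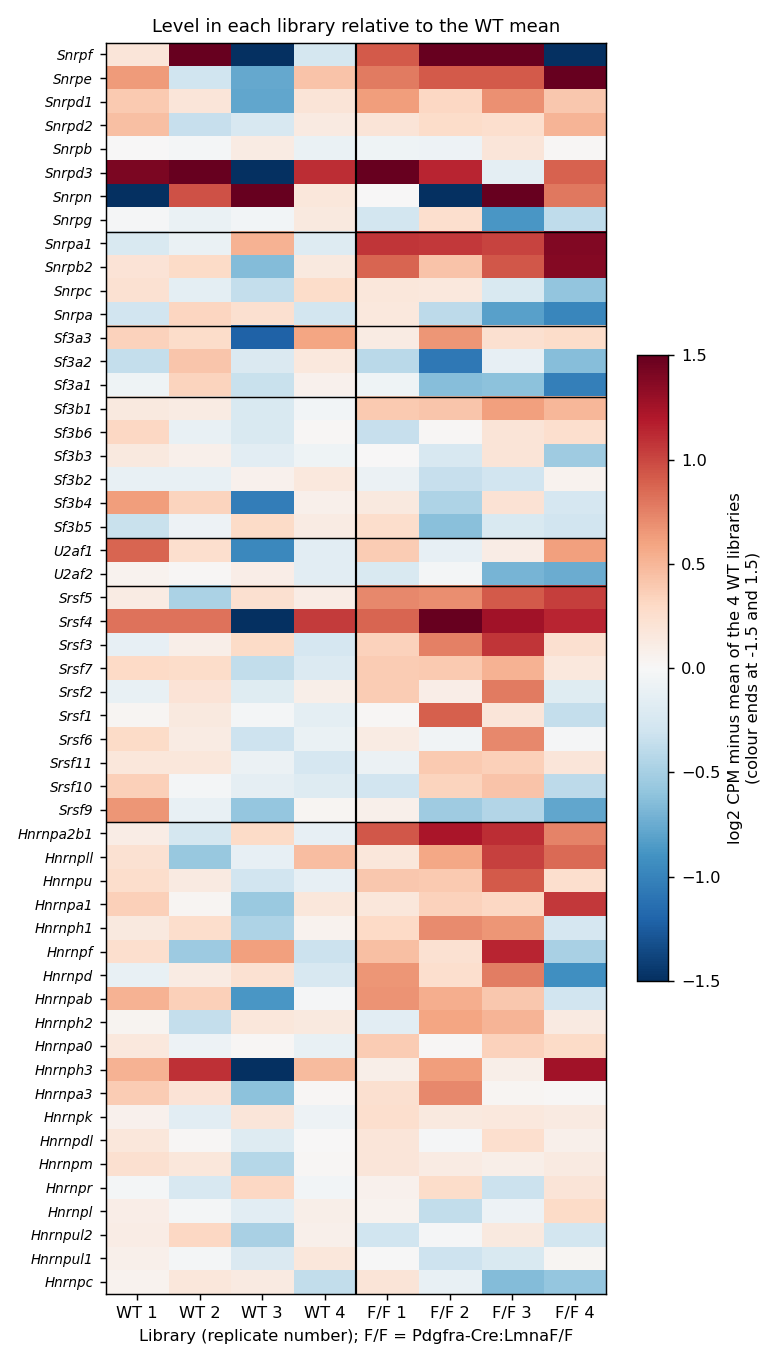
Log2 CPM of each tested core splicing factor gene (rows, by subfamily) in each library (columns), minus the mean of the 4 WT libraries; red is higher, blue is lower, and colours end at -1.5 and 1.5. *Hnrnpa2b1*, *Srsf5*, *Snrpa1*, *Snrpe*, *Snrpb2* and *Sf3b1* are red in all 4 Pdgfra-Cre:LmnaF/F libraries, and WT replicate 3 is dark blue for *Snrpd3*, *Srsf4* and *Hnrnph3*.

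*Hnrnpa2b1* encodes hnRNP A2 and B1, abundant nuclear proteins that bind UAG-containing RNA and act in alternative splicing, RNA transport and microRNA sorting. The gene (ENSMUSG00000004980.16) lies on the minus strand of chr6:51460932-51469894 in GRCm38, and *Cbx3*, a heterochromatin protein gene, starts 466 bases away in the opposite direction. Its level was 174, 134, 197 and 147 CPM in the WT mice 1 to 4 and 308, 377, 347 and 271 CPM in Pdgfra-Cre:LmnaF/F replicates 1 to 4. Each Pdgfra-Cre:LmnaF/F library was above each WT library, with means of 163 ± 28.0 CPM in the WT and 326 ± 46.1 CPM in the Pdgfra-Cre:LmnaF/F fibroblasts (SD, n = 4 each). This is a 2.0-fold difference, with a log2 fold change of 0.997 (SE 0.20, 95% interval 0.57 to 1.42, edgeR adjusted p = 0.0447). The direction held in each alternative, with log2 fold changes of 0.82 to 1.10, but the edgeR adjusted p was above 0.05 when any of 6 of the 8 libraries was left out (all but WT replicate 3 and Pdgfra-Cre:LmnaF/F replicate 4). It was 0.0878 with sex as a term in the edgeR fit, 0.0964 with the replicate number as a block and 0.0699 without WT replicates 2 and 3 and Pdgfra-Cre:LmnaF/F replicate 4. Within males the Pdgfra-Cre:LmnaF/F library was 0.84 above the 3 WT libraries on the log2 scale, and within females the 3 Pdgfra-Cre:LmnaF/F libraries were 0.81 above the WT library, with a group of 1 library in each and therefore no test.

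The promoter of *Hnrnpa2b1* and those of 3 other members are shown as the 250 bases before the RefSeq start (GRCm38.p6). *Snrpb2* and *Sf3b1* are the other members with non-overlapping genotypes whose window holds at most 30 exonic bases, and *Hnrnpa1* is shown as the A/B-type relative of *Hnrnpa2b1* that did not pass the test. Sequences are written 5′ to 3′ on the strand of the gene, and capitals mark 3 motifs on either strand. These are the CCAAT box, the GC box with the letters GGGCGG, and the core of the cyclic-AMP response element with the letters TGACGT.
Hnrnpa2b1, chr6:51469895-51470144, minus strand: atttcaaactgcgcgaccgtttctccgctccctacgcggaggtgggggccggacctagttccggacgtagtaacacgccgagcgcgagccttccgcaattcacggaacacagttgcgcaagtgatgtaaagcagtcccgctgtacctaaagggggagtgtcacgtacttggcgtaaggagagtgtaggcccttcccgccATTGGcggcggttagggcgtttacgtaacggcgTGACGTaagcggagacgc
Hnrnpa1, chr15:103240147-103240396, plus strand: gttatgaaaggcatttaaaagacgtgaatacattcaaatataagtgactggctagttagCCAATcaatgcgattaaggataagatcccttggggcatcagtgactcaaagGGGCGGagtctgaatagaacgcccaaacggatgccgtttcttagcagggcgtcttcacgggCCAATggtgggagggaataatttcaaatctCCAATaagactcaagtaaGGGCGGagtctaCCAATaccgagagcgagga
Snrpb2, chr2:143062819-143063068, plus strand: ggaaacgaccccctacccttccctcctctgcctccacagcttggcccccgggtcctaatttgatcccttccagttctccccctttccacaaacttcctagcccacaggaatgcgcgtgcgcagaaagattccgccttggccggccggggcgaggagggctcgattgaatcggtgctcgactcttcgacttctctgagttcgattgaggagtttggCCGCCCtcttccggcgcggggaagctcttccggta
Sf3b1, chr1:55027479-55027728, minus strand: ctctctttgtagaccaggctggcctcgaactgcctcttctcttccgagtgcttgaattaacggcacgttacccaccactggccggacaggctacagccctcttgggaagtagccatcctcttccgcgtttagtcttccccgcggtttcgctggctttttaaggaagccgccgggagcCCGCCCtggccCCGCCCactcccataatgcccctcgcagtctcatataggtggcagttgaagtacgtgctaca
The *Hnrnpa2b1* window holds a reversed CCAAT and, 18 bases before the start, TGACGT, whereas that of *Hnrnpa1* holds 4 CCAAT and 2 GGGCGG motifs and no TGACGT. The windows of *Snrpb2* and *Sf3b1* hold only reversed GGGCGG motifs, 1 and 2 of them. Of 48 members with a promoter sequence, 9 (18.8%) hold TGACGT, namely *Hnrnpa2b1*, *Hnrnpa3*, *Hnrnph1*, *Hnrnpm*, *Snrpa*, *Snrpg*, *Srsf3*, *Srsf6* and *Srsf11*, beside 8.29% of 14590 promoters of the same length. The full element, TGACGTCA, which contains this core, is held by 4.17% of members and 2.21% of all promoters. The share with CCAAT was 45.8% of members and 35.9% of all promoters, and the share with GGGCGG was 68.8% and 48.8%. CCGGAAGT, an ETS factor motif, was in 12.5% of members and 4.4% of all promoters. The TATA box in the form TATAAA was in 10.4% and 9.99%. All motifs were searched on both strands. A match describes the letters of the window and does not show that a factor binds there. The motifs were chosen after the expression values were seen.

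*Hnrnpa1* encodes hnRNP A1, the closest relative of hnRNP A2/B1 among the members. Its level was 63.5, 50.3, 33.4 and 55.7 CPM in the WT mice 1 to 4 and 55.5, 62.8, 61.4 and 103 CPM in Pdgfra-Cre:LmnaF/F replicates 1 to 4, and the genotypes overlapped (log2 fold change 0.48, edgeR adjusted p = 0.520). *Hnrnpa1* has many near-identical processed pseudogenes, and reads could be split among copies. The ratio of *Hnrnpa2b1* to *Hnrnpa1* CPM within a library, which does not depend on library scaling, was 2.73, 2.66, 5.90 and 2.65 in WT replicates 1 to 4 and 5.55, 6.00, 5.66 and 2.63 in Pdgfra-Cre:LmnaF/F replicates 1 to 4. The 4 low ratios were those of the 4 libraries from males and the 4 high ratios those of the 4 libraries from females, in both genotypes. In each genotype the rarer sex is 1 library (WT replicate 3 and Pdgfra-Cre:LmnaF/F replicate 4). Sex and these libraries, which also stood apart in other measures, cannot be told apart. In the edgeR fit with genotype and sex, *Hnrnpa1* was 0.77 higher in males on the log2 scale (SE 0.23, unadjusted p = 0.00398, adjusted p = 0.331). For the sex term 24 genes (0.184%) were called and 1099 genes (8.43%) had an unadjusted p under 0.05, whereas 0 of the 53 members were called and 6 (11.3%) had an unadjusted p under 0.05. Against *Hnrnpk*, the ratio of *Hnrnpa2b1* separated the genotypes instead, at 0.420 to 0.489 in the WT and 0.694 to 0.954 in the Pdgfra-Cre:LmnaF/F libraries. The neighbour that starts beside *Hnrnpa2b1*, *Cbx3*, had a log2 fold change of 0.53 (SE 0.22, edgeR unadjusted p = 0.0306, adjusted p = 0.364), and *Cbx5*, which starts 616 bases from *Hnrnpa1* in the opposite direction, one of -0.28 (adjusted p = 0.753). These 2 neighbours are no members and were chosen after their values were seen.

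**Figure D3:**
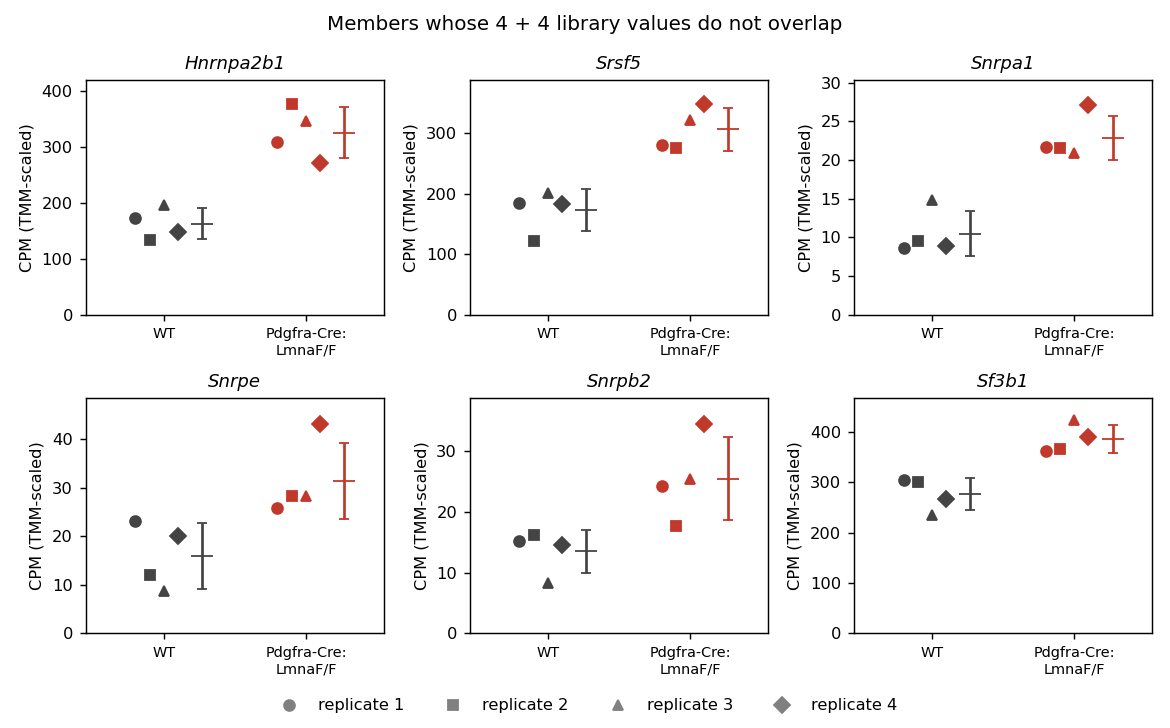
CPM (vertical axes, starting at 0) of the 6 core splicing factor genes whose genotypes do not overlap, with a symbol per replicate number and the mean ± SD of the 4 libraries beside the points. In each panel all Pdgfra-Cre:LmnaF/F points (red) lie above all WT points (grey), with the smallest relative gaps for *Snrpe* and *Snrpb2*.

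Among the other 18 hnRNP genes besides *Hnrnpa2b1* and *Hnrnpa1*, log2 fold changes ranged from -0.26 for *Hnrnpc* to 0.63 for *Hnrnpll*, and none passed the adjusted threshold. Over all 20 hnRNP genes, 16 were positive with a median of 0.26. *Hnrnpll*, which regulates splicing in lymphocytes, had a mean of 44.0 CPM in the WT and 68.8 CPM in the Pdgfra-Cre:LmnaF/F libraries with overlapping ranges. *Hnrnpu*, the scaffold attachment factor that binds chromatin-associated RNA, had 165 to 241 CPM in the WT and 238 to 382 CPM in the Pdgfra-Cre:LmnaF/F libraries, with a log2 fold change of 0.50 (SE 0.21, edgeR adjusted p = 0.364). *Hnrnpk*, a poly(C)-binding protein and the hnRNP gene with the highest level per length, lies on chr13:58391142-58403343. It had 371, 319, 402 and 337 CPM in the WT and 424, 395, 398 and 390 CPM in the Pdgfra-Cre:LmnaF/F libraries, with overlapping groups and a log2 fold change of 0.17 (95% interval -0.21 to 0.55, edgeR adjusted p = 0.796). The interval leaves room for changes of either sign, so that equal levels are not shown. *Hnrnpl*, *Hnrnpr*, *Hnrnpm* and *Hnrnpdl* had fold changes between -0.01 and 0.12 on the log2 scale.

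SR genes had positive log2 fold changes in 9 of 10 cases with a median of 0.28, and none passed the adjusted threshold. *Srsf5*, an SR protein known as a gene induced early by growth signals, lies on chr12:80945504-80950507. It had 184, 122, 201 and 183 CPM in the WT mice 1 to 4 and 280, 275, 321 and 348 CPM in Pdgfra-Cre:LmnaF/F replicates 1 to 4. The genotypes did not overlap, with a log2 fold change of 0.82 (SE 0.20, 95% interval 0.39 to 1.26, edgeR adjusted p = 0.112). DESeq2 called the gene (adjusted p = 0.00616), as did DESeq2 with an RUVr factor (adjusted p = 0.00357), and no other setting did. The log2 fold change was 0.82 with sex as a term (SE 0.22), 1.09 within males and 0.54 within females, and 0.65 in the 5 other libraries (SE 0.21). The ratio of *Srsf5* to *Srsf6*, a related SR gene, was 0.732 to 1.62 in the WT and 1.27 to 2.29 in the Pdgfra-Cre:LmnaF/F libraries, and these ranges overlapped. *Srsf3*, the smallest SR protein, had 97.0 to 141 CPM in the WT and 136 to 243 CPM in the Pdgfra-Cre:LmnaF/F libraries, with a log2 fold change of 0.63 (SE 0.22, edgeR adjusted p = 0.264). *Srsf1*, *Srsf2*, *Srsf6*, *Srsf7* and *Srsf11* had log2 fold changes of 0.21 to 0.35, *Srsf10* of 0.05 and *Srsf9* of -0.47. *Srsf4* had 4 counts (0.639 CPM) in WT replicate 3, against 9.53 to 11.3 CPM in the other WT libraries and 9.93 to 18.9 CPM in the Pdgfra-Cre:LmnaF/F libraries, so its log2 fold change of 0.80 (SE 0.64) rests in part on that library.

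The Sm proteins form a ring around the U1, U2, U4 and U5 RNAs. Their median log2 fold change was 0.14 over 8 genes, 5 of them positive, and none was called. *Snrpb*, which encodes SmB and had the highest level per length of all members, lies on chr2:130171414-130179403. It had 173, 170, 189 and 161 CPM in the WT and 166, 165, 197 and 175 CPM in the Pdgfra-Cre:LmnaF/F libraries, with a log2 fold change of 0.02 (95% interval -0.35 to 0.39, edgeR adjusted p = 0.980) whose sign changed with the filter and with sex as a term. *Snrpe*, which encodes SmE, lies on chr1:133603871-133610291. It had 23.2, 12.1, 8.63 and 20.1 CPM in the WT mice 1 to 4 and 25.8, 28.4, 28.3 and 43.1 CPM in Pdgfra-Cre:LmnaF/F replicates 1 to 4. The genotypes did not overlap, although WT replicate 1 and Pdgfra-Cre:LmnaF/F replicate 1 were close, and the log2 fold change was 0.96 (SE 0.35, edgeR adjusted p = 0.295). It was 1.43 with sex as a term (SE 0.36, edgeR adjusted p = 0.0858), 1.22 within males and 1.67 within females, and 0.33 in the 5 other libraries (SE 0.34). *Snrpf* (SmF, chr10:93583029-93589706) had the largest estimate in the family, 1.92 with an SE of 1.59, from 7, 5, 0 and 4 counts in the WT and 12, 50, 49 and 0 counts in the Pdgfra-Cre:LmnaF/F libraries. The estimate was 0.60 with limma-voom, 0.60 with sex as a term (SE 7.5) and 2.99 without WT replicate 2, and its size is therefore not determined by these data. Its exons overlap those of *Ccdc38* on the opposite strand over 567 bases. *Snrpd3* was at 0 counts in WT replicate 3 and at 3.91 to 15.6 CPM in the other libraries. *Snrpn*, the neuronal form of SmB, was at 0 to 5.27 CPM, and its exons overlap those of another listed gene on the same strand over 589 bases. The remaining Sm genes, *Snrpd1*, *Snrpd2* and *Snrpg*, had log2 fold changes of 0.46, 0.27 and -0.27. *Snrpe* and *Snrpg* have near-identical pseudogenes, so reads could be split among copies and their values are uncertain in that respect.

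Of the proteins specific to U1 and U2, the genotypes did not overlap for both U2 genes and overlapped for both U1 genes, without a test of that contrast. *Snrpa1* (the A′ protein of U2, chr7:66059003-66074587) had 8.69, 9.56, 14.9 and 8.90 CPM in the WT mice 1 to 4 and 21.7, 21.6, 20.95 and 27.2 CPM in Pdgfra-Cre:LmnaF/F replicates 1 to 4. The genotypes did not overlap, and the log2 fold change of 1.12 (SE 0.35, 95% interval 0.38 to 1.86) missed the adjusted threshold (edgeR adjusted p = 0.199), and it was 1.06 with sex as a term, 1.59 within males and 0.53 within females, and 1.27 in the 5 other libraries. *Snrpb2* (the B″ protein of U2, chr2:143063039-143072853), which binds U2 RNA together with *Snrpa1*, had 15.1, 16.1, 8.31 and 14.6 CPM in the WT and 24.3, 17.7, 25.3 and 34.5 CPM in the Pdgfra-Cre:LmnaF/F libraries. Its groups did not overlap either, with a log2 fold change of 0.92 (SE 0.35, edgeR adjusted p = 0.307). This was 1.30 with sex as a term (SE 0.36, edgeR adjusted p = 0.116), 1.18 within males and 1.43 within females, and 0.58 in the 5 other libraries (SE 0.39). *Snrpa* (the A protein of U1, chr7:27187005-27196271), the U1 relative of *Snrpb2*, had 33.5, 51.3, 48.4 and 33.9 CPM in the WT and 45.8, 31.3, 23.3 and 20.7 CPM in the Pdgfra-Cre:LmnaF/F libraries. Its groups overlapped, with a log2 fold change of -0.46 (SE 0.30, edgeR adjusted p = 0.598). It was -0.72 with sex as a term (SE 0.33, edgeR adjusted p = 0.358), -0.93 within males and -0.53 within females, -0.73 without Pdgfra-Cre:LmnaF/F replicate 1 and -0.022 in the 5 other libraries. *Snrpc* (the C protein of U1) had a log2 fold change of -0.12.

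The SF3b complex holds the branch-point helix, and SF3a bridges it to U2. *Sf3b1*, the largest subunit and the target of splicing inhibitors such as pladienolide B, lies on chr1:54985169-55027481. It had 305, 300, 235 and 268 CPM in the WT mice 1 to 4 and 362, 367, 423 and 390 CPM in Pdgfra-Cre:LmnaF/F replicates 1 to 4. Each Pdgfra-Cre:LmnaF/F library was above each WT library, and the log2 fold change was 0.48 (SE 0.18, 95% interval 0.09 to 0.87, edgeR adjusted p = 0.310), 0.56 with sex as a term, 0.42 within males and 0.71 within females, and 0.41 in the 5 other libraries. The other 5 SF3b genes had log2 fold changes of -0.20 to 0.03. *Sf3b2* (chr19:5273932-5295455), the SF3b gene with the highest level per length, had 241, 242, 271 and 289 CPM in the WT and 244, 204, 213 and 269 CPM in the Pdgfra-Cre:LmnaF/F libraries, which overlapped (log2 fold change -0.17, 95% interval -0.56 to 0.23, edgeR adjusted p = 0.809, and 0.065 within males and -0.30 within females). *Sf3a1* (chr11:4160350-4182541) had 58.2, 76.5, 47.9 and 63.5 CPM in the WT and 57.8, 39.0, 39.4 and 29.7 CPM in the Pdgfra-Cre:LmnaF/F libraries. It was the only member with a negative change at an unadjusted p under 0.05, with a log2 fold change of -0.56 (SE 0.25, edgeR unadjusted p = 0.0416, adjusted p = 0.399) and groups that overlapped. The change was -0.61 with sex as a term and -0.43 in the 5 other libraries, and -1.16 within males and -0.08 within females on the log2 scale. *Sf3a2* had a log2 fold change of -0.55 (SE 0.33). *Sf3a3* (chr4:124714776-124732460) had 35.8, 34.2, 11.98 and 42.5 CPM in the WT and 30.6, 44.6, 33.2 and 34.0 CPM in the Pdgfra-Cre:LmnaF/F libraries. WT replicate 3 was far below the rest, and without it the log2 fold change turned from 0.19 to -0.084. With sex as a term it was 0.70 (SE 0.42, edgeR adjusted p = 0.512), with -0.14 within males and 1.59 within females, a value to which WT replicate 3 contributes as the only WT library from a female. Of the U2AF subunits, U2af2 (chr7:5062143-5079938), which binds the polypyrimidine tract, had 120, 117, 124 and 104 CPM in the WT and 98.9, 114, 71.5 and 69.4 CPM in the Pdgfra-Cre:LmnaF/F libraries. Its log2 fold change was -0.40 (SE 0.21, edgeR adjusted p = 0.483), -0.55 with sex as a term (SE 0.24, adjusted p = 0.320), -0.71 within males and -0.39 within females, and -0.26 in the 5 other libraries, and that of U2af1, which contacts the intron's last AG, was 0.12 (SE 0.37).

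**Figure D4:**
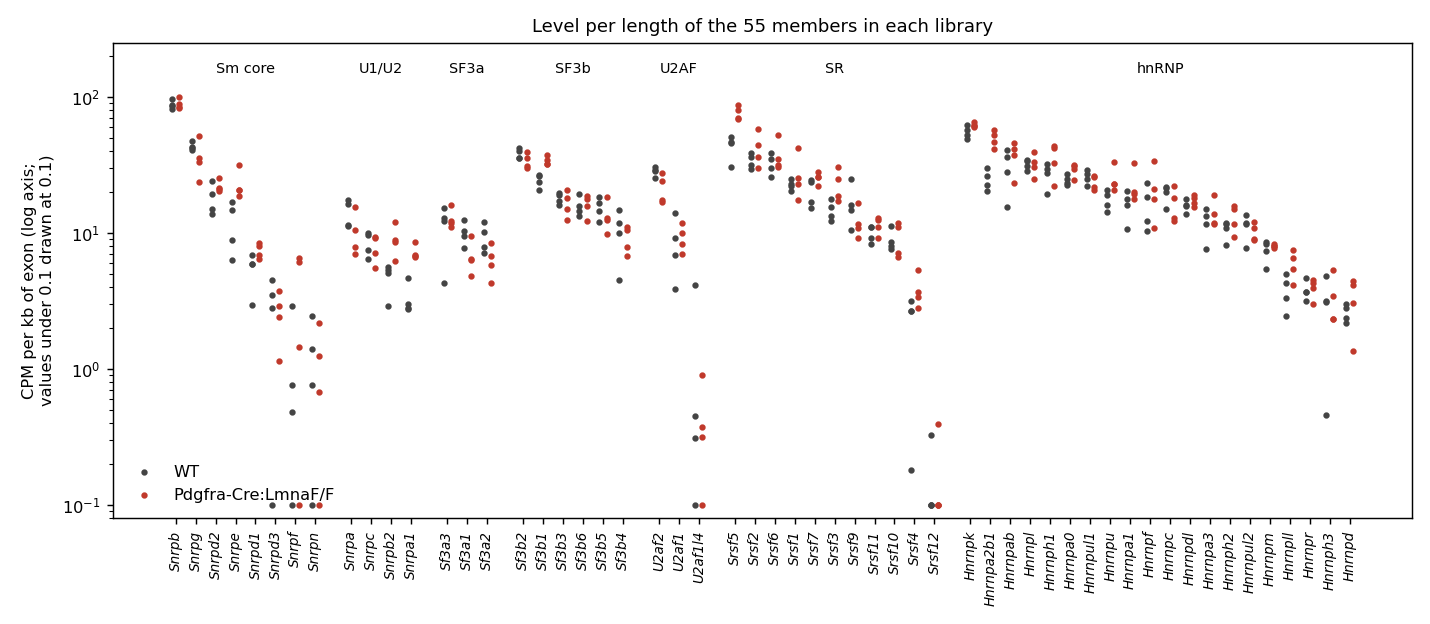
CPM per kb of annotated exon (vertical axis, logarithmic, values under 0.1 drawn at 0.1) of each of the 55 core splicing factor genes, by subfamily and falling level, with a point for each WT (grey) and Pdgfra-Cre:LmnaF/F (red) library. *Snrpb*, *Srsf5* and *Hnrnpk* lead, and *Snrpf*, *Snrpn*, U2af1l4 and *Srsf12* are lowest.

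Per kb of exon, *Snrpb* led at 87.7 ± 5.86 CPM per kb in the WT fibroblasts (SD, n = 4), followed by *Hnrnpk* at 55.3 ± 5.70, *Srsf5* at 43.3 ± 8.64 and *Snrpg* at 43.2 ± 3.15. In the Pdgfra-Cre:LmnaF/F fibroblasts, the order was *Snrpb* at 88.9 ± 7.43, *Srsf5* at 76.8 ± 8.73, *Hnrnpk* at 62.2 ± 2.36 and *Hnrnpa2b1* at 49.5 ± 7.01 CPM per kb. *Hnrnpa2b1* was at rank 13 of 55 in the WT and rank 4 in the Pdgfra-Cre:LmnaF/F fibroblasts, although neighbours in this order, such as *Hnrnpa2b1* and *Sf3b1* in the WT at 24.8 and 24.4 CPM per kb, did not differ beyond their spread. With the longest transcript in place of all exons *Hnrnpk* was first in both genotypes, so the order between genes depends on the length used. The members varied less between replicates than genes at large, with a median SD of log2 CPM within a genotype of 0.333 for the 53 tested members and 0.494 for all genes. Among genes with 20 CPM or more these medians were 0.316 for 45 members and 0.361 for 7626 genes.

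The annotation (GENCODE M21) lists a nonsense-mediated decay transcript for 27 of the 55 members (49.1%) and for 23.3% of 18921 protein-coding entries of the listed genes, where some symbols have several entries. By subfamily these were 9 of 11 SR, 10 of 20 hnRNP, 3 of 3 U2AF, 4 of 12 Snrp and 1 of 9 SF3 genes. A retained-intron transcript is annotated for 74.5% of members and 47.4% of the listed genes. The deposited values are counts per gene, so productive transcripts and those with a poison exon or retained intron cannot be told apart, and a higher count is not shown to be more protein. Exons of 12 members overlap those of another listed gene, 10 of them on the opposite strand only, among them *Hnrnpk*, *Hnrnpu*, *Snrpa* and *Srsf2*. A start site within 1000 bases in the opposite direction is annotated for 10 members (18.2%) and for 7.44% of the listed genes.

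Splicing and related genes outside the rule were described with 9 lists of 148 listed genes, among them LSm genes that act outside splicing, such as *Lsm1*. None was called by edgeR, while 16 (10.8%) were higher and 1 (0.676%) was lower at an unadjusted p under 0.05, beside 6.24% and 5.65% of all genes. DESeq2 called 2 of them higher, beside 134 of all 18513 genes it tested. DESeq2 with an RUVr factor called 4 of them higher, beside 197 of 18957 genes. Their groups did not overlap for 8 genes that were higher (5.41%) and 2 that were lower (1.35%), beside 4.06% and 3.97% of all genes, and the median log2 fold change was 0.11. Medians by list ran from -0.13 for the 9 exon junction complex genes and -0.07 for the 11 LSm genes to 0.24 for the 20 SR-related proteins and kinases, 0.25 for the 9 helicases and 0.27 for the 23 Prp19 complex and step factors. *Ddx5*, an RNA helicase that is part of splicing and transcription complexes, had a mean of 594 ± 43.7 CPM in the WT and 925 ± 125 CPM in the Pdgfra-Cre:LmnaF/F fibroblasts, with groups that did not overlap (log2 fold change 0.64, edgeR adjusted p = 0.183). *Clk1*, a kinase that phosphorylates SR proteins, had overlapping groups and a log2 difference of 0.72 (edgeR adjusted p = 0.194). *Rbm39*, a U2AF-related factor, had 220 ± 12.3 CPM in the WT and 329 ± 23.9 CPM in the Pdgfra-Cre:LmnaF/F fibroblasts without overlap (log2 fold change 0.58, edgeR adjusted p = 0.193). *Matr3*, a nuclear matrix RNA-binding protein, showed a log2 difference of 0.76 (edgeR adjusted p = 0.206). *Lsm1*, of the cytoplasmic decapping ring, had one of 1.04 (edgeR adjusted p = 0.232), *Phf5a*, an SF3b subunit outside the rule, one of 0.96 (adjusted p = 0.398), and *Scaf11* and *Prpf18* had 0.58 and 0.60. On the lower side, *Zmat5* of the minor spliceosome had 9.09 ± 4.8 CPM in the WT and 2.55 ± 1.18 CPM in the Pdgfra-Cre:LmnaF/F fibroblasts (log2 fold change -1.83, edgeR adjusted p = 0.328). The other genes named by the rule of the 2 lowest p in each list, *Sart3*, *Lsm10*, *Snw1*, *Ddx42*, *Acin1*, *Magoh*, *Strap*, *Ddx20* and *Zrsr2*, had log2 fold changes of -0.53 to 0.84 and adjusted p of 0.364 to 0.755 by edgeR.

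Summed levels of other gene lists were compared in the same libraries. The summed level of 20 immediate-early and heat-shock genes, which respond to cell isolation, was 3573 to 6855 CPM in the WT and 9379 to 14437 CPM in the Pdgfra-Cre:LmnaF/F libraries (p = 0.0286 in a two-sided exact permutation test, the smallest this design allows). Of the 20, 15 were higher at an unadjusted p under 0.05 and 3 were called by edgeR. The sum of 7 endothelial markers was 557 to 768 CPM in the WT and 429 to 565 CPM in the Pdgfra-Cre:LmnaF/F libraries (exact permutation p = 0.0571), and that of 7 macrophage and leukocyte markers was 48.6 to 182 and 53.7 to 472 CPM (exact permutation p = 0.857). Of these lists, the groups did not overlap for the immediate-early and heat-shock genes alone. The 13 cycling genes had 105 to 411 CPM in the WT and 114 to 150 CPM in the Pdgfra-Cre:LmnaF/F libraries (exact permutation p = 0.400). Of the 10 cycling genes tested, 8 had a negative and 2 a positive log2 fold change with a median of -1.80. At an unadjusted p under 0.05, 4 were lower and 1 was higher, and edgeR called 0 of them. The part of these measures in the differences of *Hnrnpa2b1*, *Srsf5* and the other members was not tested.

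**Figure D5:**
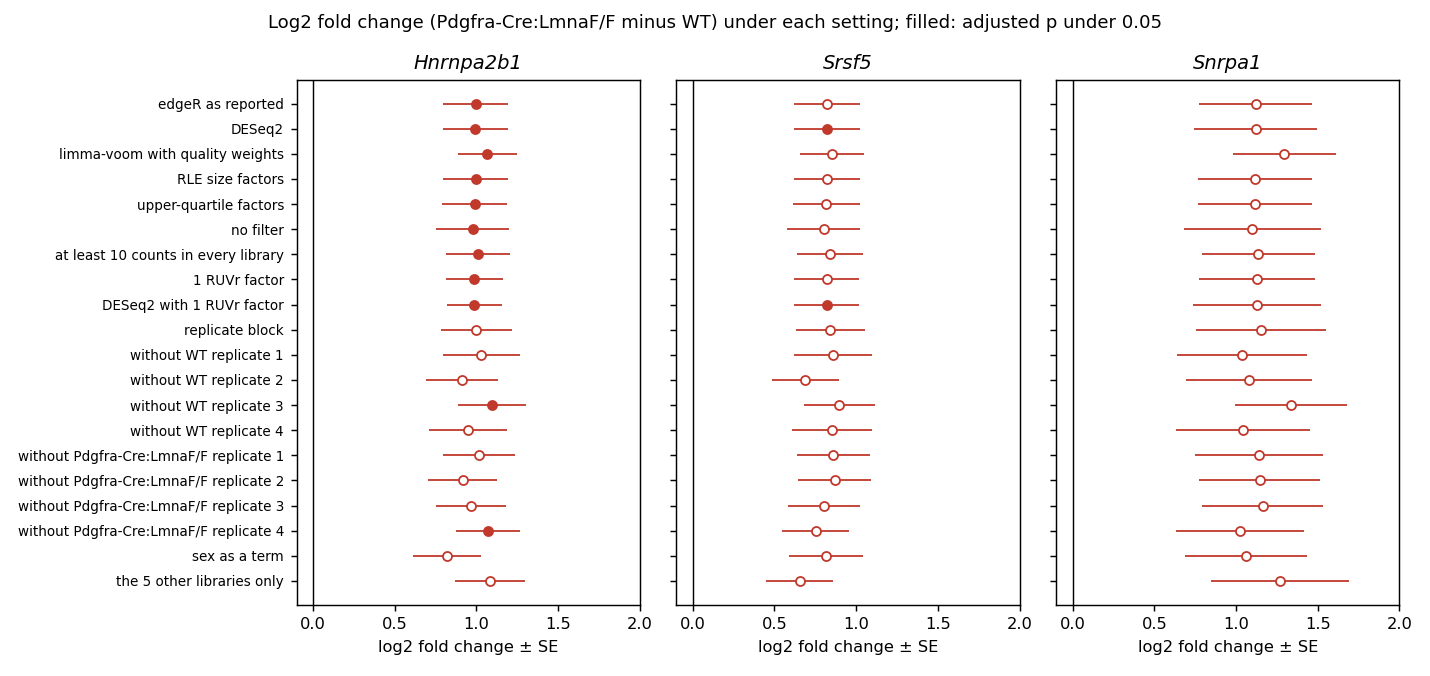
Log2 fold change (Pdgfra-Cre:LmnaF/F minus WT) ± SE of *Hnrnpa2b1*, *Srsf5* and *Snrpa1* in the reported edgeR fit and under each alternative setting (rows); filled points have an adjusted p under 0.05. All 3 genes stay right of 0 in each row, whereas *Hnrnpa2b1* is filled in the reported fit and in 8 of 9 planned settings besides leaving out a library, *Srsf5* in 2 and *Snrpa1* in none.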

How the data were processed

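The authors prepared stranded, ribosome-depleted libraries (RIN above 8), sequenced 150 bp read pairs and mapped them to mm10. The deposited values are read counts by gene symbol, without scaling or RUV factors. Groups and replicate numbers came from the sample labels. Genes listed by symbol were matched to GENCODE M21 (18918 of 18957) for coordinates and exon length, and to RefSeq (GRCm38.p6) for promoters.

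Testing used edgeR 4.0.16 in R 4.3.3 (TMM, filterByExpr, quasi-likelihood test, Benjamini-Hochberg adjustment over 13036 genes, threshold 0.05), with DESeq2 1.42.0 and limma 3.58.1 as alternatives, and figures used Python 3.11.15. CPM are TMM-scaled. Summed marker levels were compared with exact permutation tests. The code was tested on simulated counts. Depth covers counting error only, and the floor was set at 3 counts.

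The members and lists were chosen with earlier results of these data known. Named in full were members past the adjusted threshold, those with non-overlapping genotypes, and in each subfamily the member with the highest level per length and the largest change, with the 2 lowest p of each pathway list. *Ddx39a* and *Qki* were not analysed here. Alternatives were RLE or upper-quartile factors, limma-voom, DESeq2, RUVr, other filters, a replicate block and the omission of each library. Sex as a term and the fit without WT replicates 2 and 3 and Pdgfra-Cre:LmnaF/F replicate 4 were added after seeing the data.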

Additional observations from a re-analysis of the deposited data

Results flagged for a closer look

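A value was listed where the highest or lowest of 4 libraries of a genotype stood apart from the other 3 by a gap above the 95% critical share of the range by Dixon's criterion. Chance gives about 1 in 20 groups, and 5 of 106 groups of members and 6 of 56 groups of summed lists were listed.

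Pdgfra-Cre:LmnaF/F replicate 4 was highest among the Pdgfra-Cre:LmnaF/F libraries for *Hnrnpa1* (103 CPM against 55.5 to 62.8), for *Snrpa1* (27.2 CPM against 20.95 to 21.7) and for *Snrpe* (43.1 CPM against 25.8 to 28.4). The same library stood apart in the summed cardiac myocyte markers (5548 CPM against 276 to 876) and in the macrophage and leukocyte markers (472 CPM against 53.7 to 112), and it was the only Pdgfra-Cre:LmnaF/F library from a male. The part of these in the values of the 3 members was not tested. Leaving the library out gave a log2 fold change of 1.02 for *Snrpa1* and 0.76 for *Snrpe*.

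WT replicate 3 stood apart for *Snrpa1* (14.9 CPM against 8.69 to 9.56) and for *Srsf4* (0.639 CPM against 9.53 to 11.3), and in the summed level of other snRNP proteins (1128 CPM against 1276 to 1305). WT replicate 2 was low in the summed snRNP assembly genes (262 CPM against 336 to 350) and in the endothelial markers (557 CPM against 738 to 768). Pdgfra-Cre:LmnaF/F replicate 1 had 247 CPM of erythroid markers, against 4.07 to 11.7 CPM in the other Pdgfra-Cre:LmnaF/F libraries.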

How the results depend on the processing

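The direction of *Hnrnpa2b1*, *Srsf5*, *Snrpa1*, *Snrpe*, *Snrpb2*, *Sf3b1*, *Hnrnpk*, *Sf3a1*, *Sf3b2*, *Snrpa* and U2af2 was the same under every alternative fit, although within males *Sf3b2* turned to 0.065. Whether the shared replicate numbers mark pairs of mice is not stated. Same-numbered libraries had correlations of -0.03 to 0.04 of their deviations and other pairs of -0.03 to 0.04. With so few libraries these values cannot decide whether the libraries are paired. With the replicate block edgeR called 36 genes and 0 members (*Hnrnpa2b1* 1.0, adjusted p = 0.0964).

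The count of all genes called was 309 with DESeq2, 126 with limma-voom, 274 without a filter, 125 with an RUVr factor, 519 with DESeq2 and RUVr, 112 with sex as a term and 13 to 76 with a library left out. Members called higher were 2 with DESeq2 with or without RUVr, 0 with sex as a term, 0 without WT replicates 2 and 3 and Pdgfra-Cre:LmnaF/F replicate 4, and 0 to 1 with a library left out. Of all genes tested, 134 of 18513 were called higher with DESeq2 and 197 of 18957 with DESeq2 and RUVr. With sex as a term these were 64 of 13036, in the 5 remaining libraries 17 of 14048, and with a library left out 1 to 40 of 13447 to 13673. Members lower at an unadjusted p under 0.05 were 2 (3.77%) with RUVr, with DESeq2 and RUVr and with sex as a term, beside 6.95%, 6.66% and 6.3% of all genes. They were 0 in the 5 remaining libraries, beside 4.33% of all genes. With a library left out they were 0 to 2 (0% to 3.77%), beside 4.25% to 6.71% of all genes. The higher ones were 6 to 9 with a library left out (11.3% to 17%, beside 4.63% to 6.35% of all genes) and 4 in the 5 remaining libraries (7.55%, beside 4.16% of all genes). Of the 148 pathway genes, those called higher were 2 with DESeq2 and 4 with DESeq2 and RUVr, beside 134 of 18513 and 197 of 18957 genes tested. Members without overlap were 6 to 11 higher and 0 to 2 lower with a library left out, and 13 higher (24.5%) and 4 lower (7.55%) in the 5 remaining libraries. Beside these, 5.21% to 6.58% of all genes were higher and 5.04% to 7.01% lower without overlap with a library left out, and 12.6% and 15% in the 5 remaining libraries. The median of the members was 0.11 to 0.27 with a library left out 0.20 with sex as a term and 0.067 in the 5 remaining libraries, in which sex and genotype coincide. Without Pdgfra-Cre:LmnaF/F replicate 3, edgeR called 17 genes, and without WT replicate 4 it called 13.

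For *Hnrnpa2b1* the log2 fold change was 0.82 with sex as a term (adjusted p = 0.0878), 1.09 in the 5 remaining libraries (adjusted p = 0.0699) and 0.91 to 1.10 with a library left out. With sex as a term the change was larger than in the reported fit for *Snrpe* (1.43), *Snrpb2* (1.30) and *Snrpa* (-0.72), and it was smaller in the 5 remaining libraries (0.33, 0.58 and -0.022). For *Snrpf* it was 0.60 to 1.92 over the planned settings other than leaving out a library, with 1.09 under the replicate block, and 1.41 to 2.99 with a library left out. *Srsf5* was called by DESeq2 (0.82) and by DESeq2 with RUVr (0.82). The sign reversed for *Sf3a3* with limma-voom (-0.071), without WT replicate 3 (-0.084) and in the 5 remaining libraries (-0.13), where leaving out a library gave -0.084 to 0.39, whereas it was 0.70 with sex as a term. It reversed for *Snrpb* without a filter (-0.00084), with sex as a term (-0.023) and over the libraries left out (-0.037 to 0.058). With the longest transcript as length, CPM per kb over all libraries moved from 58.7 to 128 for *Hnrnpk*, from 11.98 to 18.3 for *Sf3a3*, from 36.2 to 76.5 for *Sf3b2*, from 12.2 to 21.3 for *Snrpa*, from 88.3 to 102 for *Snrpb* and from 24.9 to 42.5 for U2af2. The changes in CPM per kb follow from the calculation, since the same CPM were divided by a shorter length. The cause of the other changes was not tested, except that leaving out libraries reduces the sample.

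Precision was lowest for members with few counts, with an SE of the log2 fold change of 1.59 for *Snrpf* and 1.46 for *Snrpn*, beside a median of 0.24 over the 53 tested members.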

Other observations

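Members that differed by sex at an unadjusted p under 0.05, in the edgeR fit with genotype and sex, were *Hnrnpa1*, *Hnrnph3*, *Snrpe* and U2af1, which were higher in males, and *Hnrnpf* and *Hnrnpd*, which were higher in females. The log2 differences (male minus female) were 0.77 for *Hnrnpa1*, 1.90 for *Hnrnph3*, 0.87 for *Snrpe*, 0.91 for U2af1, -0.96 for *Hnrnpf* and -0.91 for *Hnrnpd*. None passed the adjusted threshold (adjusted p = 0.331 to 0.573 by edgeR), beside 24 genes called of 13036 (0.184%). *Hnrnpf* had 71.4 CPM in the WT library from a female and 31.7 to 55.6 CPM in the 3 WT libraries from males, and 33.2 CPM in the Pdgfra-Cre:LmnaF/F library from a male and 54.3 to 103 CPM in the 3 Pdgfra-Cre:LmnaF/F libraries from females. The libraries from males and females did not overlap within either genotype for this gene. Sex and the libraries that stood apart (WT replicate 3 and Pdgfra-Cre:LmnaF/F replicate 4) cannot be told apart, since each is the only library of its sex in its genotype.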
